A study of Bos taurus with 28 samples.

Results

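The genes described here are 47 genes of the DNA damage response and of DNA repair, read from arrays of bovine liver. They were listed by name, and each was represented by 1 probe set, the one with the highest mean log2 signal over 28 arrays. The list was chosen by measured signals, in that RHNO1 and TDP2 had higher signals in hormone-treated livers than in control livers, so the contrasts with the control had already been used. A probe set with 1 gene symbol was found for 35 of the 47 genes, out of 13292 probe sets with 1 symbol and 24016 probe sets other than controls. RAD1, RAD9A, ATR, ATM, CHEK2, TOPBP1, ERCC8, XPA, OGG1, PMS2, MGMT and BRCA2 were not analysed here. Of the 35 genes, 34 passed the filter on low signals.

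Liver was biopsied from ovariectomized, dry Holstein cows after 14 days with an estradiol ear implant (E2T), with progesterone from a vaginal device (P4T), with both devices together (E2P4T) or without any hormone (CO). The design was a randomized Latin square in which, by the study's methods, each cow passed through every treatment in turn. Each group has 7 arrays, named below by group and replicate number, so that P4T 4 is replicate 4 of P4T. The sample labels of P4T call that progesterone intradermal, whereas the labels' own treatment protocol gives a vaginal device. All cows shared the ovariectomy, so CO is a liver without ovarian hormones and not that of an intact cow. Neither cow nor period is given for an array, so the p-values below measure the spread between arrays with that of cows included.

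DNA lesions are found by dedicated sensors, which signal through kinases to hold the cell cycle, while separate repair routes remove the lesion. Nucleotide excision repair cuts out bulky adducts, base excision repair replaces damaged bases, and broken strands are rejoined by end joining or copied back by homologous recombination. In liver, most hepatocytes are at rest, and these genes serve maintenance of a genome exposed to reactive metabolites more than replication.

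One array went against its label. On E2P4T 5, 15 hepatocyte markers had a mean log2 signal of 10.01, while the other arrays had 15.03 to 15.82, and albumin (ALB) read 12.06 there, against 16.57 to 18.16. The 7 kidney nephron markers measured averaged 11.18 on E2P4T 5, against 5.05 to 7.80 elsewhere, and among them uromodulin (UMOD) read 11.33. The hybridisation spikes had their highest mean log2 signals on E2P4T 5 (18.44), P4T 4 (17.49), CO 3 (16.45) and E2T 3 (15.64). Of the 35 genes, 13 lay outside the range of the other 26 arrays on E2P4T 5 and 12 did so on P4T 4. E2P4T 5 held the highest or lowest of the 28 values for 31.4% of the genes, against 47.5% of all probe sets, and P4T 4 for 28.6%, against 30.9%. For most genes the changes from CO are therefore also given without E2P4T 5 and P4T 4, which leaves those of E2T as they are. CO 3 and E2T 3 stay in these repeats. CO 3 was the highest of the 28 arrays for HUS1, ERCC2, XPC and LIG1 and the lowest for RHNO1 and TDP1. It held such a value for 17.1% of the genes, against 11.8% of all probe sets, and enters every contrast with CO. In whole liver tissue, fewer cells of a type and less RNA per cell cannot be told apart.

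**Figure D1:**
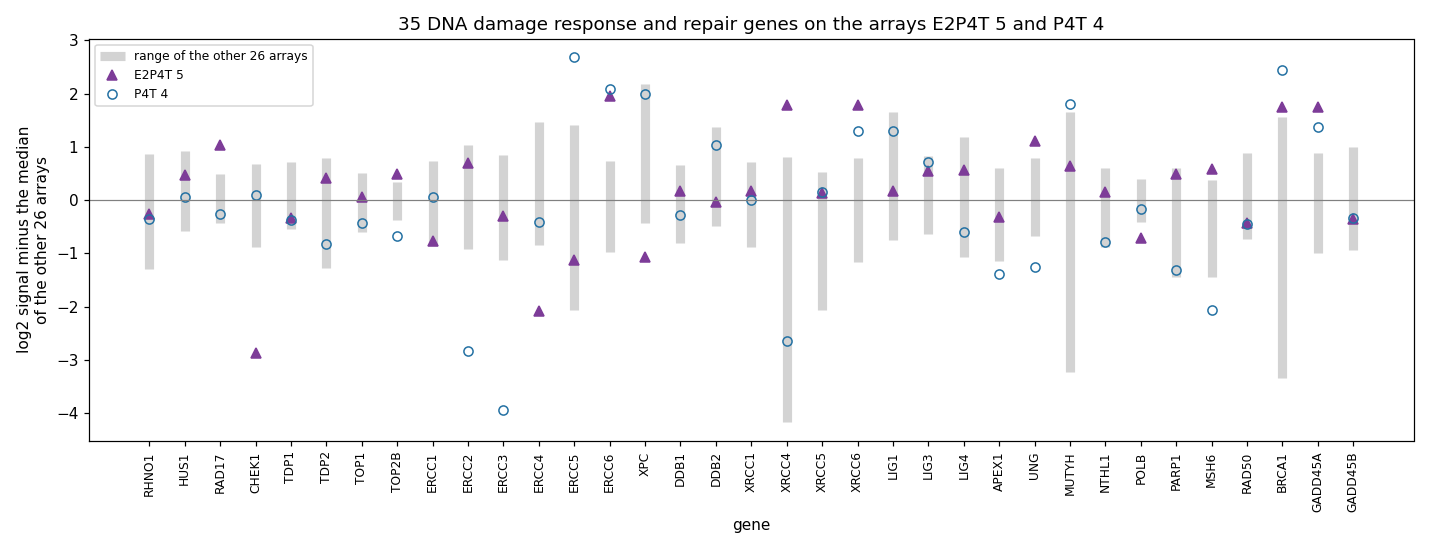
Log2 signal of each of the 35 genes on E2P4T 5 (filled triangles) and P4T 4 (open circles), minus the median of the other 26 arrays, with the range of those 26 arrays as a grey bar. CHEK1 lay far below the bar on E2P4T 5, and ERCC3 far below it on P4T 4.

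Differences from CO went in either direction across the repair routes. The mean of each treatment lay above CO for 13 of the 34 genes tested (38.2%, with 24.8% of all probe sets) and below CO for another 13 (with 34.6% of all probe sets). For the 34 genes the median log2 change was 0.01 in E2T livers, -0.05 in P4T livers and 0.01 in E2P4T livers, beside -0.10, -0.03 and -0.02 for all probe sets tested. The 3 contrasts share the CO arrays. Median centring of each array moved the median of all probe sets in E2T to 0.17 and that of the 34 genes to 0.29, so small changes have no settled sign.

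By limma, 6 of the 34 genes had an unadjusted p under 0.05 in E2T against CO, where 5.42% of all probe sets did. These were RHNO1, TDP2, TOP1 and RAD50, which were higher, and LIG1 and BRCA1, which were lower. In P4T against CO there were 3, with 2.78% of all probe sets, namely RHNO1, which was higher, and HUS1 and ERCC2, which were lower. In E2P4T against CO there were 6, with 4.9% of all probe sets, of which RHNO1, TDP2, TOP1, XRCC4 and UNG were higher and LIG1 was lower. After Benjamini-Hochberg adjustment by limma, 0 of 18732 probe sets had a p under 0.05 in any contrast. In no contrast did the arrays of 2 groups lie apart for any of the 34 genes, as 0.117% of all probe sets did in E2T against CO, 0.0214% in P4T and 0.032% in E2P4T, 0.0107% in E2P4T against E2T and 0.00534% in E2P4T against P4T. Because these contrasts were used to draw up the list, their counts are a description only.

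**Figure D2:**
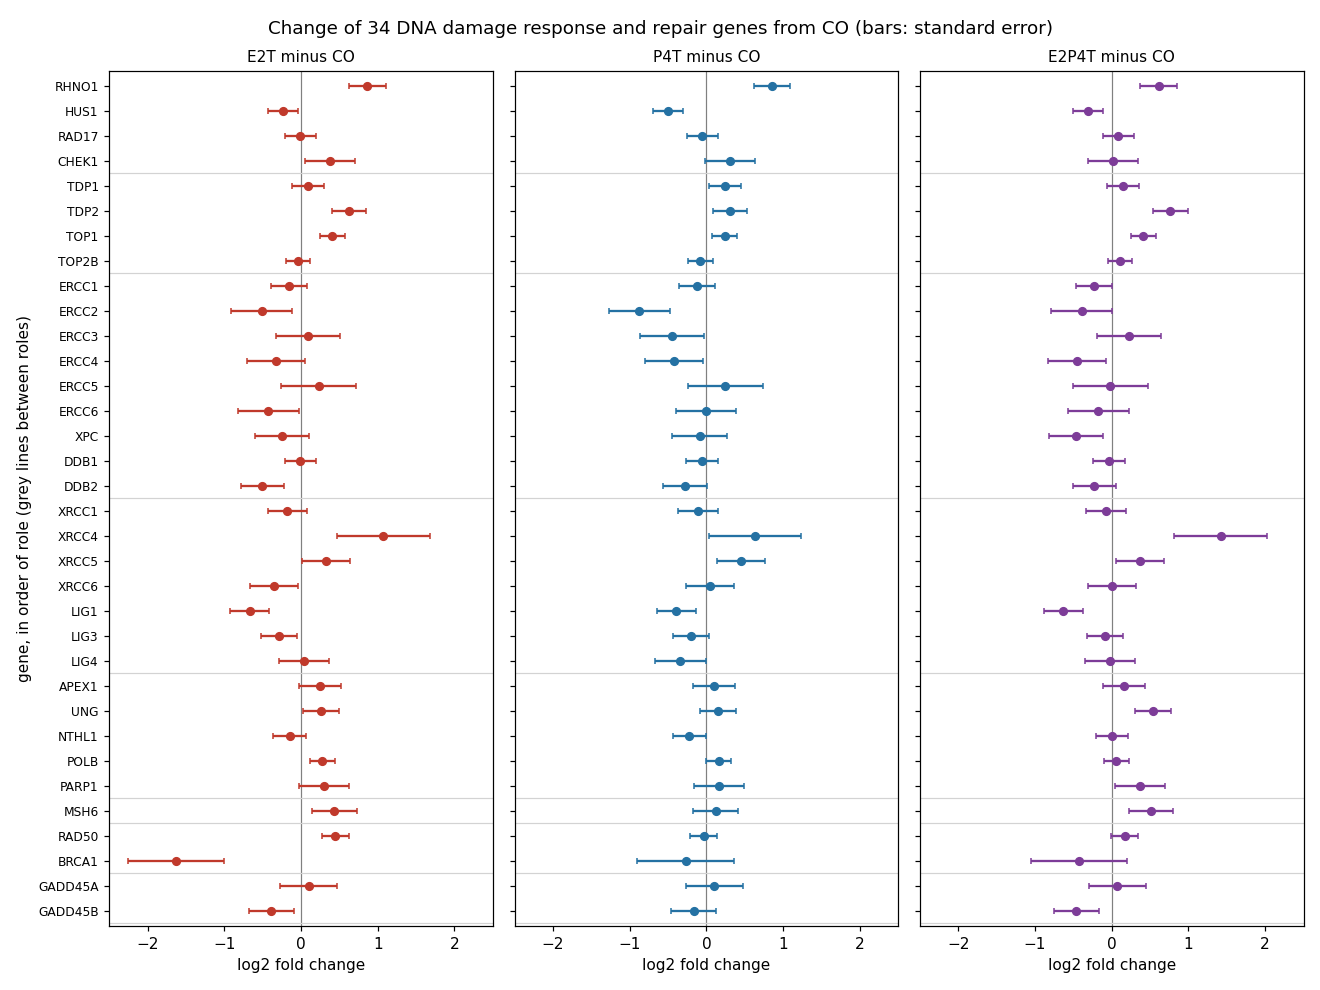
Log2 fold change of the 34 genes from CO in E2T, P4T and E2P4T, with bars of 1 standard error and grey lines between the roles. RHNO1, TDP2 and TOP1 lie right of 0 in all 3 panels, and LIG1 and HUS1 lie left of 0.

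Among the checkpoint genes, RHNO1 had a higher mean and HUS1 a lower mean than CO in every treatment. RHNO1 encodes a partner of the RAD9A, RAD1 and HUS1 clamp, the ring that is loaded at damaged DNA and helps to switch on the kinase ATR. Its log2 signals in replicate order were 9.39, 9.47, 9.33, 9.42, 10.14, 9.63 and 9.43 in E2T. In P4T they were 9.60, 9.15, 9.70, 9.04, 9.41, 9.56 and 10.27, and in E2P4T 9.70, 8.65, 9.28, 9.59, 9.15, 9.81 and 8.85. CO arrays read 9.35, 8.74, 8.10, 8.29, 8.50, 8.40 and 9.37. The groups overlapped, with 6 arrays of E2T, 5 of P4T and 3 of E2P4T above the highest CO array. RHNO1 differed from CO by 0.87 in E2T livers, 0.85 in P4T livers and 0.61 in E2P4T livers on the log2 scale (SE 0.24 each), equal to 1.82-fold, 1.81-fold and 1.53-fold. Without P4T 4 and E2P4T 5 they were 0.87, 0.94 and 0.63.

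HUS1, a subunit of the clamp itself, went the other way. Its lowest, median and highest log2 signals were 9.16, 9.94 and 10.13 in E2T, 9.26, 9.56 and 9.80 in P4T and 9.24, 9.68 and 10.21 in E2P4T, against 9.50, 10.07 and 10.66 in CO. All 7 arrays of P4T lay below the CO mean, though they overlapped the CO range. HUS1 differed from CO by -0.24 in E2T livers, -0.50 in P4T livers and -0.31 in E2P4T livers (log2, SE 0.19). HUS1 differed by -0.54 in P4T livers and -0.39 in E2P4T livers without the 2 arrays. CHEK1, the kinase that ATR activates, had log2 changes of 0.38, 0.31 and 0.01 in the same order. Its E2P4T mean rested on E2P4T 5, which read 8.65, and without the 2 arrays the changes of CHEK1 were 0.38, 0.29 and 0.45. RAD17, which loads the clamp, differed from CO by -0.01, -0.05 and 0.09 on the log2 scale, and by -0.06 in E2P4T without the 2 arrays.

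**Figure D3:**
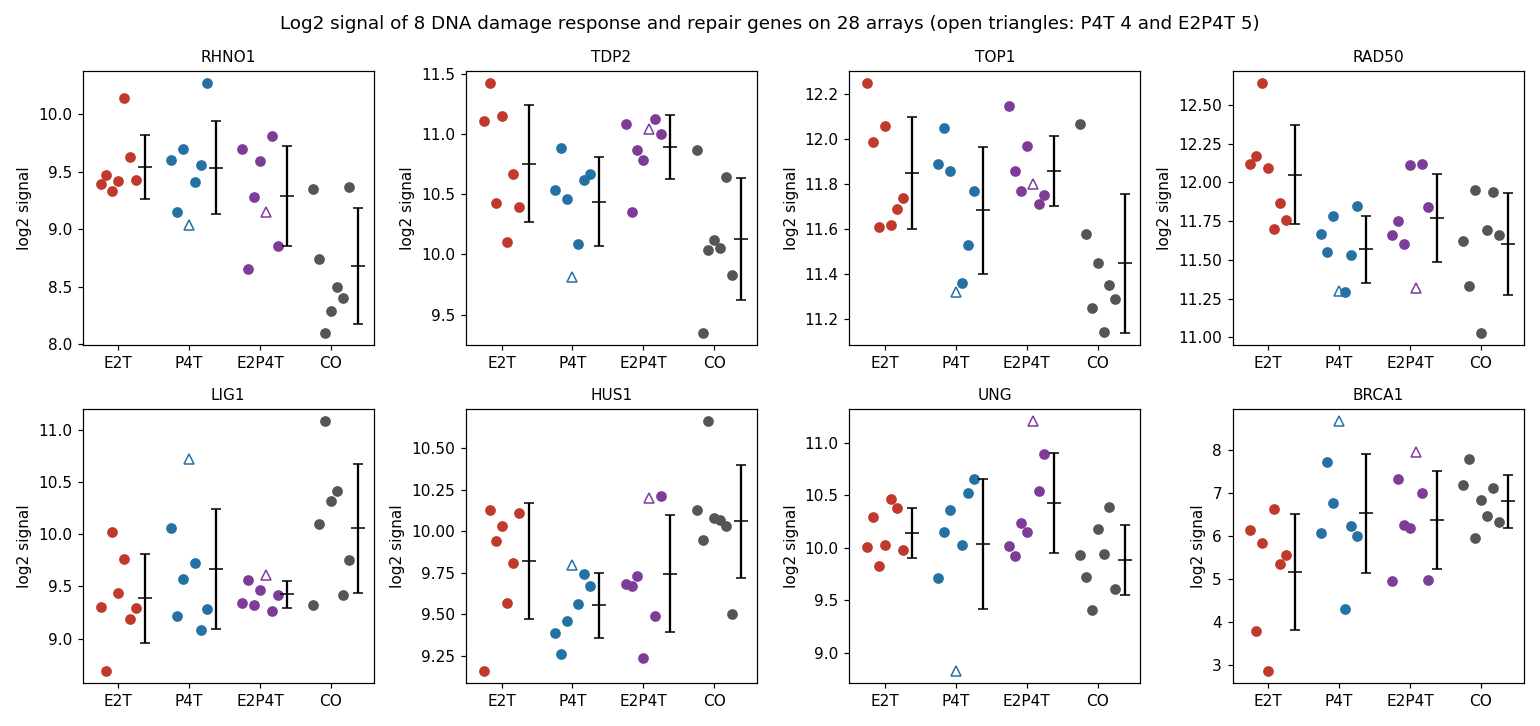
Log2 signal on every array for RHNO1, TDP2, TOP1, RAD50, LIG1, HUS1, UNG and BRCA1 in E2T, P4T, E2P4T and CO, with the mean and SD of each group beside its points. Open triangles mark P4T 4 and E2P4T 5, and in every panel the groups overlap.

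Topoisomerases cut DNA to release twist and can become trapped on it, and the tyrosyl-DNA phosphodiesterases free the strand. TDP2 releases topoisomerase II from DNA ends. In E2T its log2 signals were 11.11, 11.42, 10.43, 11.15, 10.10, 10.67 and 10.39. In P4T TDP2 read 10.53, 10.88, 10.46, 9.81, 10.09, 10.62 and 10.67, and in E2P4T 11.08, 10.35, 10.87, 10.78, 11.04, 11.12 and 11.00. CO arrays read 10.87, 9.35, 10.04, 10.12, 10.05, 10.64 and 9.83. All arrays of E2P4T lay above the CO mean, but only 4 of them, 3 of E2T and 1 of P4T exceeded the highest CO array. The 4 of E2P4T include E2P4T 5 (11.04). TDP2 differed from CO by 0.63 in E2T livers, 0.31 in P4T livers and 0.76 in E2P4T livers (log2, SE 0.22), or 1.55-fold, 1.24-fold and 1.70-fold. The log2 changes of TDP2 were 0.41 in P4T livers and 0.74 in E2P4T livers without the 2 arrays.

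TOP1, the topoisomerase that nicks 1 strand, had lowest, median and highest log2 signals of 11.61, 11.74 and 12.25 in E2T and 11.32, 11.77 and 12.05 in P4T. In E2P4T the TOP1 values were 11.71, 11.80 and 12.15, against 11.14, 11.35 and 12.07 in CO. Every array of E2T and E2P4T was above the CO mean, while 1 CO array lay as high as they did. The log2 changes of TOP1 were 0.41, 0.24 and 0.41 (SE 0.16) in E2T, P4T and E2P4T. TDP1, which frees topoisomerase I, changed by 0.09, 0.24 and 0.15 (SE 0.21), and TOP2B, the topoisomerase II of resting cells, by -0.04, -0.08 and 0.11 (SE 0.16). TOP1 changed by 0.30 in P4T livers and 0.42 in E2P4T livers without the 2 arrays. TDP1 then changed by 0.32 and 0.20, and TOP2B by 0.02 and 0.05.

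Of the 9 nucleotide excision repair genes, 7 had a lower mean than CO in E2T, where 59.8% of all probe sets did, 8 in P4T (53.7%) and 8 in E2P4T (51.7%). Without the 2 arrays there were 8 in P4T and 7 in E2P4T, with 59.1% and 58.5% of all probe sets. Of these changes, that of ERCC2 in P4T alone had an unadjusted p under 0.05 by limma, and it did not without the 2 arrays. Over the 9 genes the median log2 change was -0.25 in E2T livers, -0.12 in P4T livers and -0.23 in E2P4T livers. These medians were -0.31 in P4T livers and -0.14 in E2P4T livers without the 2 arrays, so the order of these groups turned. ERCC2, a helicase of the repair and transcription factor TFIIH, had lowest, median and highest log2 signals of 6.89, 7.76 and 8.17 in E2T and 4.99, 7.35 and 8.63 in P4T. In E2P4T the ERCC2 values were 7.21, 7.83 and 8.52, against 7.40, 8.34 and 8.86 in CO. ERCC2 differed from CO by -0.51 in E2T livers, -0.88 in P4T livers and -0.39 in E2P4T livers (log2, SE 0.40). The low value in P4T was that of P4T 4, and without the 2 arrays ERCC2 changed by -0.51, -0.48 and -0.51. DDB2 and XPC, which recognise damage, had log2 changes of -0.50 and -0.25 in E2T, -0.28 and -0.09 in P4T and -0.23 and -0.47 in E2P4T. ERCC4, whose nuclease cuts beside the lesion together with ERCC1, changed by -0.33, -0.42 and -0.46 on the log2 scale, and ERCC6, which acts in transcribed genes, by -0.43, -0.01 and -0.17. The standard errors of these changes were 0.28 for DDB2, 0.35 for XPC, 0.38 for ERCC4 and 0.40 for ERCC6, and the 95% interval of each change included 0. ERCC1 changed by -0.16, -0.12 and -0.23, DDB1, the partner of DDB2, by -0.01, -0.05 and -0.04, and ERCC5, the nuclease on the other side of the lesion, by 0.23, 0.25 and -0.02. Without the 2 arrays, DDB2 changed by -0.43 in P4T livers and -0.19 in E2P4T livers, XPC by -0.37 and -0.31, ERCC4 by -0.37 and -0.14 and ERCC6 by -0.31 and -0.48. For XPC this repeat removed the high array of P4T (P4T 4, 14.51) but kept that of CO (CO 3, 14.69). The next CO array read 12.68, so the larger XPC decrease in P4T is a description. Median XPC signals of E2T, P4T and E2P4T livers read 12.36, 12.58 and 12.39, beside 12.60 for CO (log2). ERCC6 passed the filter on low signals only through P4T 4 (9.61) and E2P4T 5 (9.48), so its changes are a description. The sign of ERCC5 turned without them in both groups, to -0.16 in P4T livers and 0.16 in E2P4T livers.

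ERCC3, the other helicase of TFIIH, has a pair of probe sets that differed in sign. On the brighter one, log2 signals of ERCC3 were 8.77, 9.33, 7.98, 9.11, 9.33, 9.23 and 9.40 in E2T and 8.56, 8.70, 8.99, 5.18, 9.11, 9.52 and 9.30 in P4T. E2P4T arrays read 9.14, 8.85, 9.13, 8.91, 8.81, 9.96 and 9.27, against 8.84, 8.72, 9.16, 8.46, 8.83, 9.58 and 8.92 in CO. The groups lay over one another except for P4T 4, the lowest of the 28 arrays. On the other ERCC3 probe set the values were 7.77, 6.78, 7.63, 6.13, 7.06, 7.61 and 6.50 in E2T and 7.49, 7.37, 5.20, 9.38, 6.47, 6.89 and 6.02 in P4T. There E2P4T arrays read 7.20, 7.95, 6.48, 5.77, 8.61, 7.83 and 6.78, against 7.85, 7.35, 8.59, 8.15, 7.88, 7.87 and 8.54 in CO. P4T 4, the lowest array on the first ERCC3 probe set, was the highest on the second. The log2 changes were 0.09, -0.45 and 0.23 (SE 0.42) on the brighter probe set and -0.97, -1.06 and -0.80 (SE 0.49) on the other, in E2T, P4T and E2P4T. Without the 2 arrays the brighter ERCC3 probe set gave 0.09, 0.10 and 0.28, so its sign in P4T rested on P4T 4. On the other probe set, only P4T 4 and E2P4T 5 of the treated arrays lay above the CO mean of 8.03. The lower means there therefore did not rest on these 2 arrays. Unadjusted p-values by limma on that probe set were 0.0554, 0.0367 and 0.109 for E2T, P4T and E2P4T against CO. The paper lists ERCC3 as lower in every treatment, most of all in P4T.

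**Figure D4:**
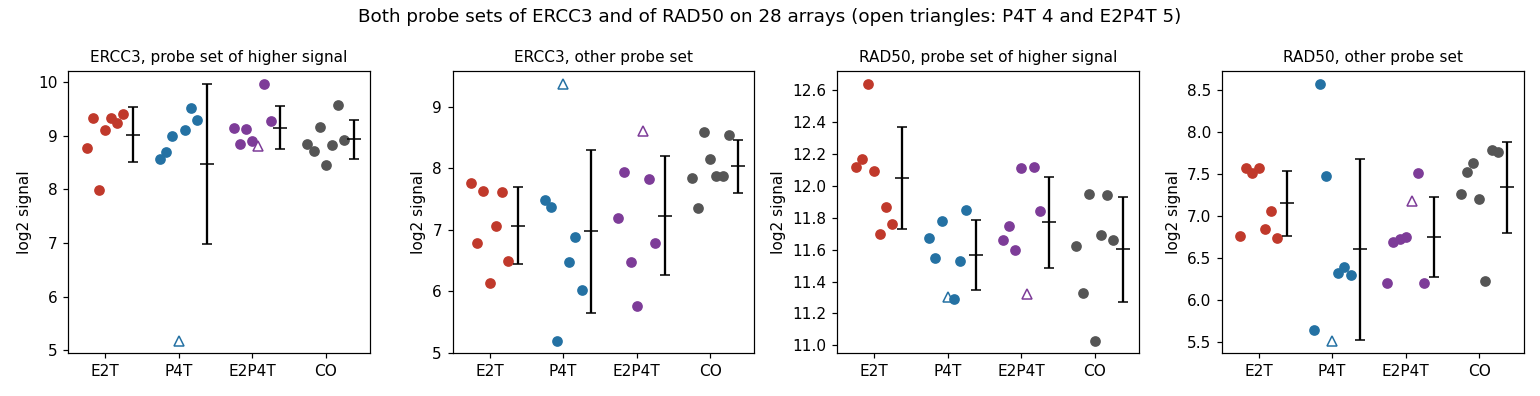
Log2 signal on every array for both probe sets of ERCC3 and both of RAD50 in E2T, P4T, E2P4T and CO, with the mean and SD beside the points and open triangles for P4T 4 and E2P4T 5. P4T 4 is the lowest point on one ERCC3 probe set and the highest on the other.

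Among genes that join broken strands, LIG1 and XRCC4 stood farthest from CO in E2T and E2P4T, in opposite directions. LIG1, the ligase that seals newly copied DNA and also closes repair gaps, had lowest, median and highest log2 signals of 8.69, 9.30 and 10.02 in E2T, 9.08, 9.57 and 10.72 in P4T and 9.26, 9.43 and 9.61 in E2P4T, against 9.32, 10.10 and 11.08 in CO. Below the lowest CO array lay 4 arrays of E2T, 3 of P4T and 2 of E2P4T. The log2 change of LIG1 was -0.67, -0.39 and -0.63 (SE 0.26), and without the 2 arrays -0.67, -0.57 and -0.66. The 9 proliferation markers measured averaged 6.87 to 7.79 per array in E2T, 6.43 to 7.29 in P4T and 6.76 to 7.95 in E2P4T, against 7.08 to 7.96 in CO, and their part in the LIG1 values was not tested.

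XRCC4, which holds LIG4 at a broken end, read 6.63, 7.85 and 8.30 in E2T, 5.15, 7.75 and 8.06 in P4T and 7.22, 7.89 and 9.57 in E2P4T, against 3.62, 6.97 and 8.61 in CO (lowest, median and highest log2 signal). The CO arrays alone covered nearly the whole range, with an SD of 1.96. The log2 change of XRCC4 was 1.07, 0.63 and 1.42 (SE 0.60), and 1.07, 0.99 and 1.17 without the 2 arrays. XRCC5 and XRCC6, the Ku proteins that bind a broken end, had log2 changes of 0.32 and -0.35 in E2T, 0.45 and 0.05 in P4T and 0.37 and 0.0031 in E2P4T. LIG4 changed by 0.04, -0.34 and -0.02. Without the 2 arrays XRCC5 changed by 0.43 in P4T livers and 0.34 in E2P4T livers, LIG4 by -0.26 and -0.08, and XRCC6, whose sign turned, by -0.14 and -0.27. XRCC1 and LIG3, the scaffold and the ligase of nick repair, had lower means than CO in each treatment, by 0.08 to 0.29 on the log2 scale, with standard errors of 0.26 and 0.23.

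Base excision repair had 5 genes tested, with median log2 changes of 0.26 in E2T livers, 0.15 in P4T livers and 0.16 in E2P4T livers. These medians were 0.31 in P4T livers and 0.21 in E2P4T livers without the 2 arrays. UNG, the glycosylase that removes uracil from DNA, had lowest, median and highest log2 signals of 9.83, 10.03 and 10.46 in E2T, 8.83, 10.15 and 10.65 in P4T and 9.92, 10.24 and 11.20 in E2P4T, against 9.41, 9.93 and 10.39 in CO. P4T 4 was the lowest and E2P4T 5 the highest of all 28 arrays for UNG. Its log2 change was 0.26, 0.15 and 0.54 (SE 0.24), and 0.26, 0.35 and 0.41 without the 2 arrays. APEX1, which cuts the strand at the emptied site, changed by 0.25, 0.10 and 0.16, and POLB, which fills the gap, by 0.27, 0.16 and 0.06. PARP1, a sensor of broken strands, changed by 0.30, 0.16 and 0.37 (SE 0.33), and NTHL1, a glycosylase of oxidised bases, by -0.15, -0.22 and 0.0022. Without the 2 arrays APEX1 changed by 0.31 in P4T livers and 0.21 in E2P4T livers, POLB by 0.19 and 0.16, PARP1 by 0.33 and 0.27 and NTHL1 by -0.12 and -0.02. On its chosen probe set MUTYH, which removes adenine paired with oxidised guanine, did not pass the filter. Its highest log2 signal there was 8.29, under the lowest value kept of 8.46. A second MUTYH probe set passed through CO alone, where its highest log2 signal was 8.71. It gave log2 changes of -1.45, -1.81 and -0.87 (SE 0.77) in E2T, P4T and E2P4T, which are a description. BRCA1 lay just inside the filter with 8.65, a value reached on P4T 4 alone, and ERCC6 was inside only through P4T 4 and E2P4T 5.

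MSH6, a subunit of the mismatch sensor, was the only mismatch repair gene of the list with a probe set. Its lowest, median and highest log2 signals were 11.27, 11.77 and 12.07 in E2T, 9.68, 11.63 and 11.97 in P4T and 10.75, 11.91 and 12.32 in E2P4T, against 10.30, 11.55 and 11.86 in CO. Of these arrays, 3 of E2T, 3 of P4T and 5 of E2P4T exceeded the highest CO array of MSH6, and those of E2P4T include E2P4T 5 (12.32). The log2 change was 0.43, 0.12 and 0.51 (SE 0.29), and 0.43, 0.41 and 0.43 without the 2 arrays.

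GADD45A and GADD45B encode small proteins induced by stress. GADD45A differed from CO by 0.10, 0.10 and 0.07 on the log2 scale. Its sign turned in both groups without the 2 arrays, to -0.10 in P4T livers and -0.21 in E2P4T livers. GADD45B had lowest, median and highest log2 signals of 9.01, 9.90 and 10.22 in E2T, 9.10, 10.00 and 10.72 in P4T and 9.12, 9.56 and 10.57 in E2P4T, against 8.96, 10.41 and 10.90 in CO. The CO range enclosed that of every treatment, and the log2 change was -0.39, -0.16 and -0.46 (SE 0.29), and -0.10 in P4T and -0.45 in E2P4T without the 2 arrays.

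RAD50 and BRCA1 serve homologous recombination. RAD50, the ATPase of the complex that tethers broken ends, had lowest, median and highest log2 signals of 11.70, 12.09 and 12.64 in E2T, 11.29, 11.55 and 11.85 in P4T and 11.32, 11.75 and 12.12 in E2P4T, against 11.03, 11.66 and 11.95 in CO. E2T stood highest, with 4 of its 7 arrays above every CO array, whereas no P4T array was. The log2 changes of RAD50 from CO were 0.45, -0.04 and 0.17 (SE 0.17), and 0.0076 in P4T and 0.25 in E2P4T without the 2 arrays. BRCA1, a tumour suppressor that directs repair to recombination, read 2.87, 5.56 and 6.63 in E2T, 4.32, 6.22 and 8.65 in P4T and 4.95, 6.24 and 7.95 in E2P4T, against 5.95, 6.82 and 7.77 in CO. Of the E2T arrays, 5 lay below the lowest CO array, and the log2 change of BRCA1 was -1.63, -0.27 and -0.43 (SE 0.63), and -0.62 in P4T and -0.69 in E2P4T without the 2 arrays.

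The direct contrasts compare means of treated arrays. CO arrays enter their shared estimate of the spread, and the treated arrays took part in the choice of RHNO1 and TDP2, whose differences are a description. The question they address is whether estradiol, progesterone and their combination differed from each other. In E2T against P4T, 2 of 34 genes had an unadjusted p under 0.05 by limma, RAD50 and BRCA1, and 1.44% of all probe sets did. BRCA1 passed the filter on low signals through P4T 4 alone, so its difference is given as a description. With the arrays of E2T and P4T alone in the fit, RAD50 was the 1 gene. For RAD50, the difference of E2T minus P4T was 0.49 on the log2 scale (95% interval 0.13 to 0.84, limma adjusted p = 1). It was 0.44 without the 2 arrays. On the second RAD50 probe set the difference was 0.55 (95% interval -0.30 to 1.40). BRCA1 differed by -1.36 (95% interval -2.64 to -0.08, limma adjusted p = 1), and by -1.01 without P4T 4, where its unadjusted p was above 0.05.

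In E2P4T against E2T and in E2P4T against P4T, 0 of 34 genes had an unadjusted p under 0.05 by limma, where 2.04% and 1.94% of all probe sets did. RHNO1 differed by 0.01 in E2T minus P4T (95% interval -0.47 to 0.50), by -0.26 in E2P4T minus E2T (-0.74 to 0.23) and by -0.24 in E2P4T minus P4T (-0.73 to 0.24). These intervals of RHNO1 leave room for differences near the size of its changes from CO. For TDP2 the same differences were 0.32 (95% interval -0.14 to 0.78), 0.14 (-0.32 to 0.59) and 0.46 (-0.0032 to 0.91, limma adjusted p = 1). Fitted with the arrays of E2P4T and P4T alone, TDP2 passed an unadjusted p of 0.05.

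**Figure D5:**
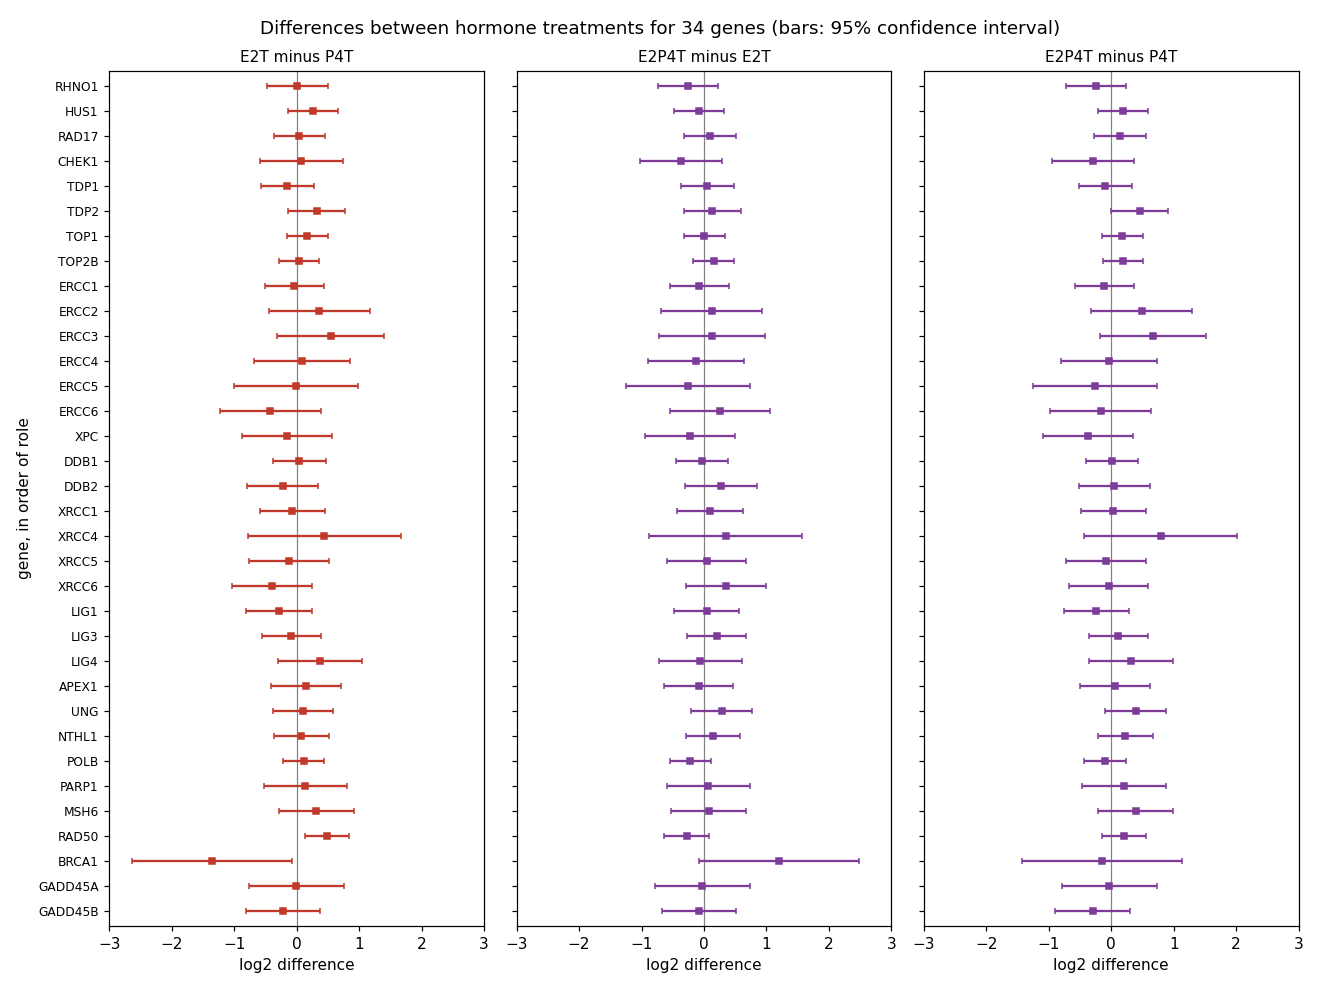
Log2 difference of the 34 genes between treatments (E2T minus P4T, E2P4T minus E2T and E2P4T minus P4T), with 95% confidence intervals from limma. Only the intervals of RAD50 and BRCA1 in E2T minus P4T lie clear of 0.

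Several genes could be read on more than 1 probe set. The 35 genes had 50 probe sets, 11 genes having several, which left 15 further probe sets. Their change from CO had the sign of the chosen probe set in 10 of these 15 for E2T, in 11 for P4T and in 8 for E2P4T, and in all 3 contrasts in 6 of 15. For LIG1, a second probe set gave -0.66, -0.93 and -1.17 (SE 0.49) and the last, below the filter, -0.48, -0.55 and 0.22 (SE 0.81). LIG3 had a probe set with -1.43, -1.17 and -1.57 (SE 0.65) and another with -0.35, 0.38 and 1.04 (SE 0.86), beside the smaller changes of the chosen one. The second TOP1 probe set gave 0.48, 0.70 and 0.01 (SE 0.44), and the second of RAD50 gave -0.19, -0.74 and -0.60 (SE 0.42), against the sign of the first in E2T and E2P4T. RHNO1 and TDP2 have 1 probe set each, so their values could not be set against a second reading.

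Partners of these genes were read from the same fit. Of 119 further genes of the damage response, 68 were tested, and 0 of them had an F test p under 0.05 over the contrasts with CO. Of all probe sets 2.12% did, and 3 of the 34 genes, RHNO1, TDP2 and RAD50. RHNO1 and TDP2 were chosen by these contrasts, so that count of 3 is a description and does not rank the 34 genes against the 68. Of the 68, in E2T against CO, 1 was higher and 1 lower at an unadjusted p under 0.05, in P4T 0, and in E2P4T 1 was higher, beside 5.42%, 2.78% and 4.9% of all probe sets. Without the 2 arrays 2 were higher and 2 lower in E2T, 1 was higher and 1 lower in P4T, and 3 were higher in E2P4T, beside 10.2%, 8.2% and 9.5% of all probe sets, and 2 had an F test p under 0.05. The genes on 28 arrays were named after their values were seen. RAD18, a ubiquitin ligase of damage tolerance, changed by 0.93 (SE 0.43) and SESN2, a stress-induced target of p53, by -0.72 (SE 0.29) in E2T. RBBP8, which starts end resection, changed by 0.62 (SE 0.24) in E2P4T, and differed by 0.49 between E2P4T and P4T (95% interval 0.01 to 0.98, limma adjusted p = 1). That interval includes E2P4T 5 and P4T 4, and 1.94% of all probe sets had an unadjusted p under 0.05 by limma in E2P4T against P4T.

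Without P4T 4 and E2P4T 5, 7 of 34 genes had an unadjusted p under 0.05 in E2T against CO, 3 in P4T and 8 in E2P4T, with 10.2%, 8.2% and 9.5% of all probe sets. CHEK1 joined in E2T, LIG1 took the place of ERCC2 in P4T, and HUS1 and CHEK1 joined in E2P4T. With only E2P4T 5 left out, RHNO1, CHEK1, TDP2, TOP1 and LIG1 had an unadjusted p under 0.05 in E2P4T, and XRCC4 and UNG did not. By the F test over the contrasts with CO, RHNO1 and TDP2 had a p under 0.01 on 28 arrays, with 0.336% of all probe sets, and RHNO1 alone did without the 2 arrays, with 1.04%. RHNO1 and TDP2 were chosen by these contrasts, so these counts are a description. At a p under 0.05 there were 6 genes without the 2 arrays, RHNO1, HUS1, TDP2, TOP1, LIG1 and RAD50, with 5.7% of all probe sets. The means of all treatments then lay above CO for 14 genes, with 27.1% of all probe sets, and below CO for 16, with 44.7%. In E2T against P4T 1 gene had an unadjusted p under 0.05 without the 2 arrays, namely RAD50, with 1.61% of all probe sets. In E2P4T against E2T and against P4T there were 0, with 1.56% and 1.38% of all probe sets. Adjusted p-values of limma were again above 0.05 for all probe sets.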

How the data were processed

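The authors deposited signal intensities of the Affymetrix Bovine GeneChip on a linear scale, made with Affymetrix software (MAS5 per the labels), in which the trimmed mean of the middle 96% of signals was 1000 on each of 28 arrays. Messenger RNA was labelled and hybridized, 1 biopsy to an array. Precision is limited by how many arrays each group has, since arrays have no read depth. No detection calls were used here.

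Signals were set on a log2 scale, and the upper 78% of 24016 probe sets by highest signal (18732) were tested. Groups came from the sample labels. R 4.3.3 and limma 3.58.1 (lmFit, eBayes with a trend) gave the contrasts, an F test over those with CO, and p-values adjusted by Benjamini-Hochberg over all probe sets tested. Cow and period, random effects in the study's model, are not in the labels and were not fitted. The study's methods leave out an array of P4T and an array of E2P4T without naming them. Whether these are among the 28 deposited arrays is not known, and all 28 were kept. The fit was tested on simulated data.

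Gene symbols came from the platform annotation, and 86 probe sets with several symbols were not named. Members and lists were chosen with earlier results of these data known. Array values are given for RHNO1, TDP2 and ERCC3, and group values for genes with an unadjusted p under 0.05 in any contrast or in the F test and for the gene farthest from CO within each role. The alternatives were other normalizations, filters and log scales, arrays left out, a replicate block, the mean over probe sets, only the groups compared, and no variance trend.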

Additional observations from a re-analysis of the deposited data

Results flagged for a closer look

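In 23 of 140 groups of 7 arrays (16.4%), spread over 16 genes, the highest or lowest array stood apart from the rest by Dixon's test, where chance gives about 1 in 20 groups. No share by this test is given for all probe sets, so the excess cannot be ascribed to these genes. P4T 4 and E2P4T 5 were the highest or lowest array for 30.9% and 47.5% of all probe sets, and for 28.6% and 31.4% of the 35 genes. P4T 4 was the array that stood apart in 8 of the groups, with log2 signals of 10.86 for TOP2B, 5.18 for ERCC3, 10.01 for ERCC5, 9.61 for ERCC6, 14.51 for XPC, 5.15 for XRCC4, 8.72 for APEX1 and 9.68 for MSH6. E2P4T 5 was that array in 4, at 8.65 for CHEK1, 9.57 for XRCC4, 10.84 for XRCC6 and 9.60 for GADD45A. E2T 3 stood apart for ERCC6 (8.27), XPC (14.03), DDB2 (8.97) and APEX1 (8.97). E2P4T 2 did so for MSH6 (10.75) and GADD45B (10.57), CO 7 for TDP1 (9.82) and XRCC5 (6.42), and CO 3 for XPC (14.69). Single values were also those of RHNO1 on E2T 5 (10.14) and ERCC3 on E2P4T 6 (9.96). XPC thus had 1 high array in E2T, in P4T and in CO. These 3 arrays, E2T 3, P4T 4 and CO 3, had mean spike signals of 15.64, 17.49 and 16.45 (log2), the highest after the 18.44 of E2P4T 5. On E2P4T 5 itself XPC read 11.45, against 12.09 to 14.69 on the other arrays. The part of spike brightness in the XPC values was not tested.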

How the results depend on the processing

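Counts of the 34 genes with an unadjusted p under 0.05 were 6, 3 and 6 in E2T, P4T and E2P4T against CO and ranged over 12 alternatives from 3 to 7, 1 to 4 and 3 to 8. With the mean over probe sets they were 3 in E2T (RHNO1, TDP2 and BRCA1) and 3 in E2P4T (RHNO1, TDP2 and UNG). TOP1 and LIG1 were then lost in both contrasts, RAD50 in E2T and XRCC4 in E2P4T. With median centring the counts were 1 in P4T (RHNO1) and 3 in E2P4T (TDP2, XRCC4 and LIG1). E2T against P4T gave 1 in place of 2 without the 2 arrays, without P4T 4, in the upper 50% of probe sets by signal (where 31 of the genes were tested), with log2 of the signal plus 50, with the replicate block, and with only the groups compared. E2P4T against P4T gave 0, and 1 with only the groups compared. The F test count of 2 at p under 0.01 became 1 without the 2 arrays, without E2P4T 5 and without a variance trend, and 0 under quantile normalization and median centring. The cause of these moves was not tested. The log2 changes of RHNO1 ranged from 0.77 to 1.14 in E2T, 0.73 to 0.97 in P4T and 0.51 to 0.73 in E2P4T, and those of TDP2 from 0.50 to 0.90, 0.18 to 0.43 and 0.63 to 0.89, with no sign turned. In E2P4T against CO, RHNO1 did not have an unadjusted p under 0.05 by limma under quantile normalization or median centring. The low end of TDP2 in P4T, 0.18, was reached without CO 2, against 0.31 with all arrays.

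Same-numbered arrays of different groups had correlations of their deviations from -0.206 to 0.319 over 42 pairs (median 0.0371, beside 0.0031 for other pairs), with 14 over 0.1, and 11 of 28 arrays correlated best with their own number, a hint from the data and not the design. Since not every pair was over 0.1, the number was not taken to pair samples. With the replicate block the counts were 6, 3 and 6 against CO, and 1, 0 and 0 in E2T against P4T, E2P4T against E2T and E2P4T against P4T. Of the 34 genes, BRCA1, XRCC4 and ERCC5 had the largest standard errors of a change from CO (0.63, 0.60 and 0.49).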
